A study of Mus musculus with 20 samples.

Results

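The genes described here build, elongate, desaturate and esterify fatty acids in the mouse liver. They are a list of 33 genes of lipogenesis and fatty acid desaturation, chosen by gene symbol from an array table that names 18193 genes. A symbol with several probe sets was represented by the one with the highest mean over all 20 arrays. Of the 33 genes, 32 had a probe set named for them alone, and all 32 passed the filter on low signals that kept 16054 genes for testing. G6pdx, which encodes glucose-6-phosphate dehydrogenase, was not analysed here. The livers came from 20 male CD1 mice, an outbred stock, dosed by mouth each day in 4 groups of 5. The vehicle groups, CMC, received methylcellulose 15 with no phenobarbital (0 mg/kg/day) for 28 or 90 days. The PB groups received phenobarbital sodium at 80 mg/kg/day for 28 or 90 days. Each array measured RNA from the left lateral lobe of 1 mouse, and tissue was frozen a day after dosing ended. Phenobarbital is a barbiturate that activates the constitutive androstane receptor in liver, and the comparisons below ask whether lipogenic gene expression differed with dosing or with its duration. Ages are not given in the sources used here, and duration and age cannot be told apart.

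In hepatocytes, citrate exported from mitochondria is split to acetyl-CoA, carboxylated to malonyl-CoA and condensed into palmitate by fatty acid synthase, with NADPH as the reducing agent. Elongases and desaturases then lengthen and unsaturate the chain, and acyltransferases load it onto glycerol 3-phosphate to make triglyceride. Insulin drives transcription of these genes through SREBP-1c, the product of Srebf1, and glucose drives it through ChREBP, the product of Mlxipl. Feeding and fasting swing the pathway widely in liver.

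No member passed the test for a phenobarbital effect at 28 days, at 90 days or over both durations. The test was limma's moderated test with Benjamini-Hochberg adjustment over the 16054 genes, and a gene is called where its adjusted p is under 0.05. At 28 days 0 of 32 members and 0.0498% of all genes tested were called, and at 90 days 0 of 32 and 0.143%. When the 2 arrays described next were left out, 0 members were called again, with 0.0685% and 0.174% of all genes. The members varied between mice of one group and moved together: the standard deviation within groups of 30 of 32 members exceeded that of the median gene tested, with a median percentile of 88.9 over the members, and without the 2 arrays 30 of 32 did, with a median percentile of 89.4. The exceptions over all 20 mice were Dgat1, above 39.5% of genes, and Acsl5, above 45.3%. These percentiles are over all genes tested, and genes of like signal level were not compared apart. Fasn, which encodes fatty acid synthase, spanned 4.49 log2 units over the 20 mice, a 22.5-fold range, and 2.91 log2 units, a 7.51-fold range, without the 2 arrays. Its standard deviation within groups exceeded that of 99.3% of the genes tested. Srebf1 tracked it with Pearson's r = 0.96 after group means were removed.

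Before the results, 2 PB arrays have to be set apart, because they stood away from the other 18 over the whole table. On the first principal component of the tested genes, which held 55.6% of the variance, mouse 5 of the 28-day PB group scored -107.9 and mouse 3 of the 90-day PB group -65.2. The next lowest scores were -39.8 and -36.4, in mice 1 and 3 of the 28-day vehicle group. The interquartile range of the log2 values was narrowest in the same 2 PB arrays, 2.36 and 2.69, against 2.75 to 3.21 in the other 18. In mouse 5 of the 28-day PB group, 30 of 32 members were below the mean of the other 4 mice of the group, with a median difference of -1.38 log2 units, while 46.1% of all genes were lower there, with a median difference of 0.06. It held the lowest of the 20 values for 27 of 32 members and for 25.9% of all genes. In mouse 3 of the 90-day PB group, 26 of 32 members were lower than in the other 4 mice, with a median difference of -0.57. Of all genes 42.2% were lower there, with a median difference of 0.09. That mouse held the lowest of the 20 values for 0 of 32 members. The hepatocyte markers (7 of 7) were also lower in the first of these mice, by a median difference of -0.31. They ran from -3.23, for Apob, to -0.09, against -2.77 to 1.35 for the members. The 4 adipocyte markers tested were higher there, with a median difference of 0.99. In mouse 3 of the 90-day PB group 6 of 7 hepatocyte markers were lower, with a median difference of -0.11. These 7 ran from -2.81, again for Apob, to 0.02, against -1.91 to 0.67 for the members. In that mouse 6 of 7 macrophage markers were higher, with a median difference of 0.99. Neither rise stood alone. The macrophage median was 0.30 in the first mouse and the adipocyte median 0.04 in the second. In the first and second mouse the medians were 0.50 and 0.25 for lymphocyte and 0.49 and 0.33 for neutrophil markers. The medians of the other marker lists ran from -0.27 to 0.03 and from -0.33 to 0.30. Single markers went the other way in the first mouse. There 2 of 5 neutrophil markers were lower, with S100a8 at -4.44, and 2 of 7 macrophage markers, with Csf1r at -1.76. The part of tissue sampling or RNA quality in these arrays was not tested, and values without these 2 are given below beside those of all 20 mice. Cyp2b10, the cytochrome P450 gene that phenobarbital induces in liver, checks the dosing labels: it rose by 4.90 ± 0.62 (SE; 95% interval 3.60 to 6.20) at 28 days (adjusted p = 0.000572 with limma) and by 5.88 ± 0.62 (SE; 95% interval 4.59 to 7.18) at 90 days (adjusted p = 2.79e-05 with limma), and no PB mouse overlapped a vehicle mouse.

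Values are log2 RMA expression values, so a difference of 1 is a doubling of signal. A level of one gene is not set against that of another, since probe sets differ in brightness. The 25th percentile of an array, used as the low limit, lay between 3.96 and 4.26. Each difference is PB minus CMC, with its standard error (SE) from the model and a 95% interval.

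**Figure D1:**
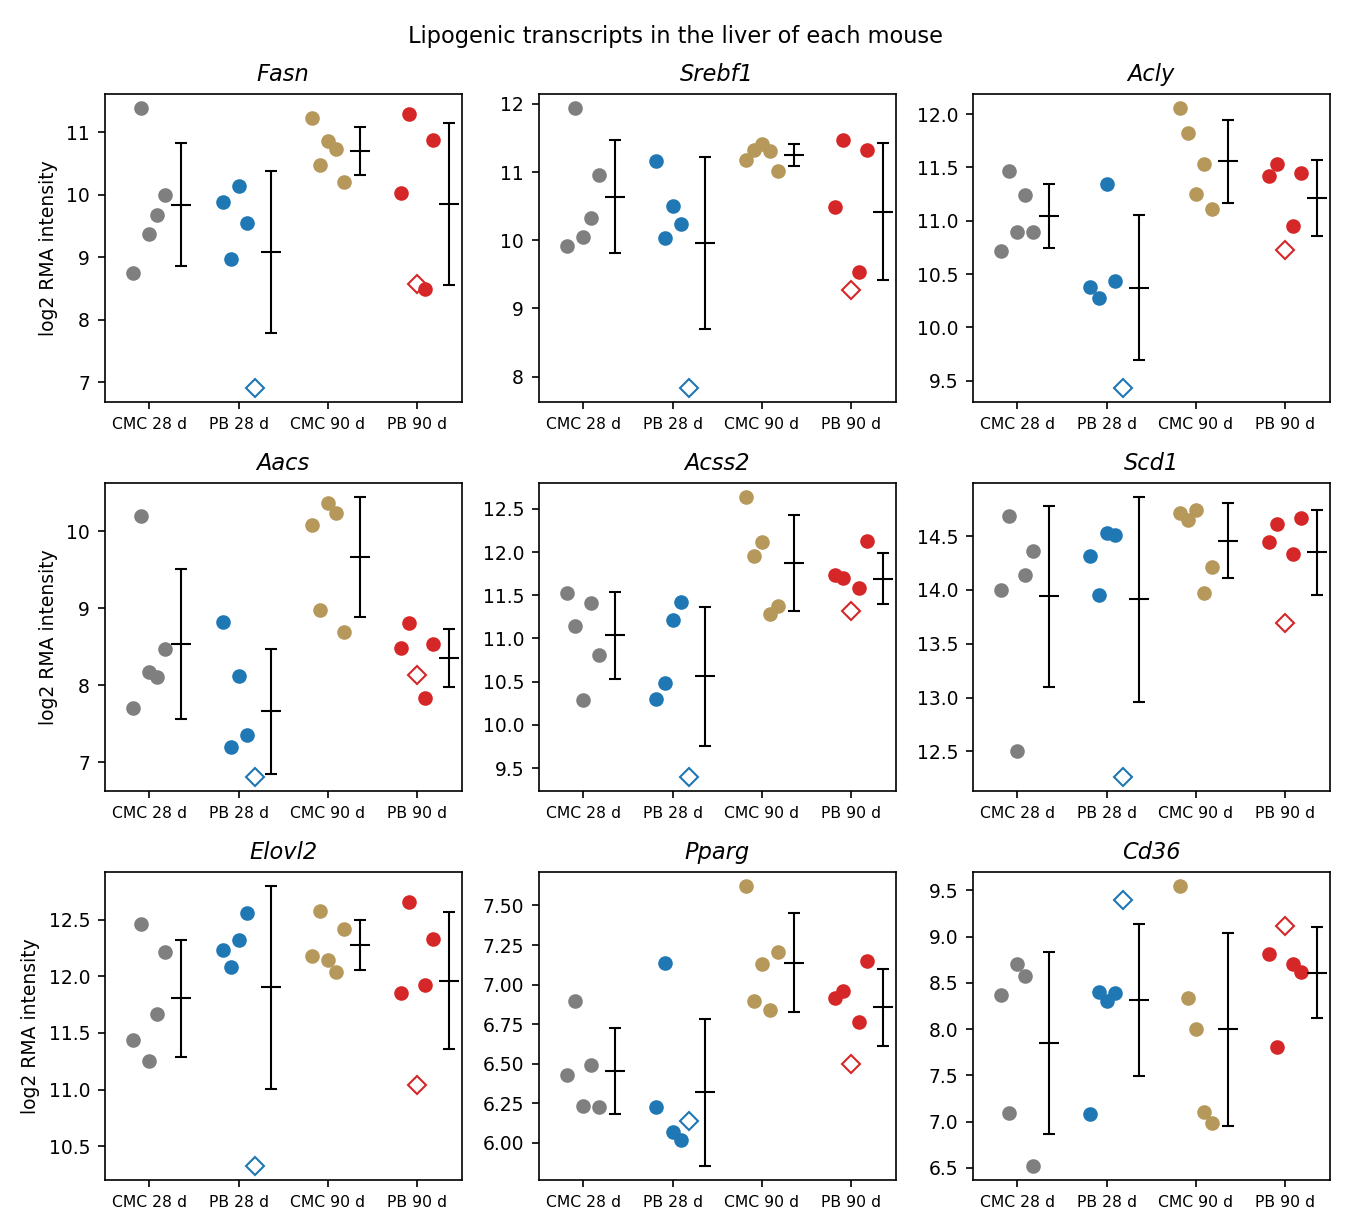
Log2 expression value of each mouse (vertical axis) for 9 members, with 1 panel per gene and mice grouped by treatment and duration; black bars are each group's mean and SD, and open diamonds are the 2 PB arrays that stand apart. Fasn, Srebf1 and Acly reach their lowest values, 6.90, 7.83 and 9.43, in mouse 5 of the 28-day PB group, and vehicle and PB mice of each duration overlap in every panel.

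Fasn makes palmitate and is the core enzyme of the pathway. Fasn read 8.74, 11.39, 9.38, 9.68 and 9.99 in the 28-day vehicle mice and 9.87, 8.96, 10.13, 9.55 and 6.90 in the 28-day PB mice. At 90 days Fasn read 11.23, 10.48, 10.86, 10.72 and 10.20 in vehicle mice and 10.03, 11.29, 8.56, 8.49 and 10.88 in PB mice. At 28 days 4 of 5 PB mice lay within the vehicle range and mouse 5 lay below it. At 90 days PB mice 1, 3 and 4 lay below every vehicle mouse, mouse 2 above every one and mouse 5 among them. The Fasn difference was -0.75 ± 0.60 (SE; 95% interval -2.01 to 0.51) at 28 days and -0.21 without the 2 arrays. At 90 days it was -0.85 ± 0.60 (SE; 95% interval -2.11 to 0.41) and -0.53 without them. Within the vehicle mice alone Fasn spanned a 6.28-fold range. The other genes of this step encode the acetyl-CoA carboxylases, which supply malonyl-CoA: Acaca the cytosolic form and Acacb the form at the mitochondrial surface that restrains fatty acid oxidation. Acaca differed by -0.14 ± 0.45 at 28 days and -0.57 ± 0.45 at 90 days, and Acacb by -0.19 ± 0.39 and -0.42 ± 0.39. Leaving out the 2 arrays, the 28-day differences were 0.28 for Acaca and 0.05 for Acacb, above 0 in both.

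Srebf1 encodes the insulin-responsive regulator of the pathway. Srebf1 read 9.92, 11.95, 10.05, 10.32 and 10.95 in the 28-day vehicle mice and 11.17, 10.03, 10.51, 10.24 and 7.83 in the 28-day PB mice. At 90 days Srebf1 read 11.18, 11.33, 11.41, 11.31 and 11.01 in vehicle mice and 10.49, 11.47, 9.27, 9.53 and 11.33 in PB mice. The 90-day vehicle mice lay close together, between 11.01 and 11.41, with PB mice 1, 3 and 4 below all of them, mouse 5 among them and mouse 2 above them. Its difference was -0.68 ± 0.52 (SE; 95% interval -1.77 to 0.41) at 28 days and -0.83 ± 0.52 (SE; 95% interval -1.92 to 0.26) at 90 days, and -0.15 and -0.54 without the 2 arrays.

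Mlxipl encodes ChREBP, which responds to glucose metabolites. Mlxipl read 10.25, 11.22, 10.61, 11.03 and 11.05 in the 28-day vehicle mice and 11.09, 10.24, 11.31, 11.31 and 9.44 in the 28-day PB mice. At 90 days Mlxipl read 11.02, 11.78, 11.17, 11.42 and 11.22 in vehicle mice and 11.19, 12.14, 9.77, 10.23 and 11.33 in PB mice. Of the 28-day mice 3 of 5 PB and 3 of 5 vehicle mice were above 11, and only the PB mouse that stood apart lay below 10. The Mlxipl difference was -0.15 ± 0.39 at 28 days and -0.39 ± 0.39 at 90 days, and 0.16 and -0.10 without the 2 arrays. Pparg encodes the adipogenic nuclear receptor PPAR gamma, which is scarce in normal liver. Pparg read 6.43, 6.89, 6.23, 6.50 and 6.23 in the 28-day vehicle mice and 6.23, 7.14, 6.07, 6.02 and 6.14 in the 28-day PB mice. At 90 days Pparg read 7.63, 6.90, 7.13, 6.84 and 7.20 in vehicle mice and 6.91, 6.96, 6.50, 6.76 and 7.15 in PB mice. Mouse 2 of the 28-day PB group was the highest of its group, and the other 4 lay close together. The difference was -0.14 ± 0.21 (SE; 95% interval -0.57 to 0.29) at 28 days, an interval that lies inside a 1.5-fold change, and -0.28 ± 0.21 (SE; 95% interval -0.71 to 0.15) at 90 days. Mid1ip1, whose product activates acetyl-CoA carboxylase, differed by -0.43 ± 0.32 and -0.56 ± 0.32, and by -0.20 and -0.51 without the 2 arrays. All 4 regulators lay below vehicle at both durations, with a median of -0.29 at 28 days and -0.47 at 90 days, and without the 2 arrays of -0.12 and -0.35, when 1 of 4 was higher at 28 days.

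The supply of acetyl-CoA, citrate and NADPH held the members with the smallest p-values. Aacs encodes acetoacetyl-CoA synthetase, which turns ketone body carbon into a lipid precursor in the cytosol. Aacs read 7.71, 10.20, 8.17, 8.10 and 8.47 in the 28-day vehicle mice and 8.82, 7.20, 8.12, 7.35 and 6.81 in the 28-day PB mice. At 90 days Aacs read 10.08, 8.97, 10.37, 10.23 and 8.69 in vehicle mice and 8.48, 8.81, 8.14, 7.84 and 8.53 in PB mice. At 90 days all 5 PB mice were below 9, while 3 of the 5 vehicle mice were above 10, and the ranges met only through vehicle mouse 5, at 8.69, and PB mouse 2, at 8.81. Aacs differed by -1.31 ± 0.44 (SE; 95% interval -2.24 to -0.39) at 90 days, with an unadjusted p of 0.00778 and an adjusted p of 0.816 from limma. Leaving out the 2 arrays, the 90-day difference was -1.25 (adjusted p = 0.999 with limma). At 28 days it differed by -0.87 ± 0.44 (SE; 95% interval -1.79 to 0.06), and by -0.66 without them. Over both durations the difference was -1.09 ± 0.31 (SE; 95% interval -1.74 to -0.44), with an unadjusted p of 0.00236 and an adjusted p of 0.431 from limma, and -0.96 without the 2 arrays. Of the other Aacs probe sets, one differed by -0.80 at 28 days and -1.24 at 90 days, and a dimmer one by 0.12 and 0.04, so the probe sets did not read alike.

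Acly encodes ATP citrate lyase, which cleaves citrate to cytosolic acetyl-CoA. Acly read 10.72, 11.46, 10.90, 11.24 and 10.90 in the 28-day vehicle mice and 10.38, 10.28, 11.34, 10.43 and 9.43 in the 28-day PB mice. At 90 days Acly read 12.06, 11.82, 11.25, 11.53 and 11.11 in vehicle mice and 11.42, 11.53, 10.73, 10.95 and 11.44 in PB mice. At 28 days 4 of 5 PB mice lay below every vehicle mouse and PB mouse 3 lay above 4 of them. Acly differed by -0.67 ± 0.27 (SE; 95% interval -1.24 to -0.10) at 28 days, with an unadjusted p of 0.0233 and an adjusted p of 1 from limma, and by -0.43 without the 2 arrays. At 90 days it differed by -0.34 ± 0.27. Among all genes tested, 1.03% were lower at 28 days with an unadjusted p under 0.05 and 1.83% were higher, and Acly was the 1 member in the first class with none in the second. At 90 days Aacs was the 1 such member, and 1.38% of all genes were lower and 3.15% higher.

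Acss2 encodes the cytosolic acetyl-CoA synthetase that uses acetate. Acss2 read 11.53, 11.15, 10.29, 11.41 and 10.81 in the 28-day vehicle mice and 10.30, 10.49, 11.21, 11.42 and 9.39 in the 28-day PB mice. At 90 days Acss2 read 12.64, 11.95, 12.11, 11.29 and 11.38 in vehicle mice and 11.73, 11.69, 11.31, 11.58 and 12.13 in PB mice. PB mouse 5 of the 28-day group was the lowest of the 20, and the other PB mice lay within the vehicle range at both durations. The difference was -0.48 ± 0.33 at 28 days and -0.18 ± 0.33 at 90 days, and -0.18 and -0.09 without the 2 arrays. Me1 encodes malic enzyme, a source of NADPH. Me1 read 11.35, 11.86, 11.23, 11.49 and 10.77 in the 28-day vehicle mice and 11.18, 11.28, 11.75, 11.56 and 10.59 in the 28-day PB mice. At 90 days Me1 read 12.65, 10.90, 11.66, 11.49 and 11.50 in vehicle mice and 11.22, 11.12, 12.01, 11.77 and 11.69 in PB mice. The groups overlapped, and the difference was -0.07 ± 0.28 at 28 days and -0.08 ± 0.28 at 90 days, and 0.10 and -0.19 without the 2 arrays. Pgd encodes 6-phosphogluconate dehydrogenase of the pentose phosphate pathway, the other main NADPH source. Pgd read 8.37, 9.11, 8.52, 9.17 and 9.11 in the 28-day vehicle mice and 8.76, 8.65, 9.14, 8.77 and 6.60 in the 28-day PB mice. At 90 days Pgd read 10.04, 9.43, 9.43, 9.43 and 9.27 in vehicle mice and 9.49, 9.86, 8.78, 9.13 and 9.45 in PB mice. Apart from the value of 6.60 the 28-day PB mice lay within the vehicle range. Its difference was -0.47 ± 0.35 at 28 days and -0.18 ± 0.35 at 90 days, and -0.03 and -0.04 without the 2 arrays. Slc25a1, the mitochondrial citrate carrier, differed by -0.28 ± 0.28 and -0.11 ± 0.28, and by 0.06 and -0.02 without the 2 arrays. All 6 supply genes lay below vehicle at 28 days (median -0.48) and at 90 days (median -0.18), and without the 2 arrays 4 of 6 at 28 days (median -0.11) and 6 of 6 at 90 days (median -0.14).

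Elongation and desaturation shape the chain after palmitate. Scd1 encodes the main hepatic stearoyl-CoA desaturase, which makes oleate. Scd1 read 14.00, 14.68, 12.51, 14.14 and 14.36 in the 28-day vehicle mice and 14.32, 13.95, 14.53, 14.51 and 12.26 in the 28-day PB mice. At 90 days Scd1 read 14.71, 14.65, 14.75, 13.97 and 14.22 in vehicle mice and 14.45, 14.61, 13.69, 14.33 and 14.67 in PB mice. In each 28-day group 1 mouse lay below 13, vehicle mouse 3 and PB mouse 5, and the rest lay between 13.95 and 14.68. Scd1 differed by -0.02 ± 0.39 (SE; 95% interval -0.84 to 0.79) at 28 days and -0.11 ± 0.39 (SE; 95% interval -0.92 to 0.70) at 90 days, and by 0.39 and 0.06 without the 2 arrays. Scd2 encodes a second desaturase, more prominent outside the adult liver. Scd2 read 5.30, 5.83, 6.09, 5.99 and 5.29 in the 28-day vehicle mice and 5.58, 5.18, 5.54, 5.33 and 4.52 in the 28-day PB mice. At 90 days Scd2 read 6.25, 5.95, 5.75, 5.79 and 5.77 in vehicle mice and 6.04, 5.76, 4.85, 5.16 and 5.64 in PB mice. The lowest mouse of each duration was the PB mouse that stood apart. Scd2 differed by -0.47 ± 0.23 (SE; 95% interval -0.95 to 0.00) at 28 days and -0.41 ± 0.23 (SE; 95% interval -0.89 to 0.06) at 90 days, and over both durations by -0.44 ± 0.16 (SE; 95% interval -0.78 to -0.11), with an unadjusted p of 0.0126 and an adjusted p of 0.632 from limma. The last was -0.27 without the 2 arrays. Its other 2 probe sets, both dimmer, differed by 0.06 and -0.01 at 28 days and by 0.19 and 0.02 at 90 days.

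Elovl6 elongates palmitate to stearate. Elovl6 read 8.90, 10.31, 9.21, 9.16 and 8.76 in the 28-day vehicle mice and 9.77, 8.98, 9.56, 9.67 and 7.34 in the 28-day PB mice. At 90 days Elovl6 read 10.44, 9.62, 10.38, 9.83 and 9.35 in vehicle mice and 9.86, 10.50, 9.87, 9.23 and 10.11 in PB mice. Vehicle mouse 2 was the highest of the 28-day mice and PB mouse 5 the lowest. The Elovl6 difference was -0.20 ± 0.40 at 28 days and -0.01 ± 0.40 at 90 days, and 0.23 and 0.00 without the 2 arrays. Elovl2 elongates long polyunsaturated chains. Elovl2 read 11.44, 12.47, 11.25, 11.67 and 12.21 in the 28-day vehicle mice and 12.23, 12.08, 12.32, 12.56 and 10.32 in the 28-day PB mice. At 90 days Elovl2 read 12.18, 12.58, 12.14, 12.04 and 12.42 in vehicle mice and 11.85, 12.65, 11.04, 11.92 and 12.33 in PB mice. Here 4 of 5 PB mice at 28 days lay above 12, against 2 of 5 vehicle mice. Elovl2 differed by 0.10 ± 0.35 (SE; 95% interval -0.64 to 0.83) at 28 days with all mice and by 0.49 without the 2 arrays, with an unadjusted p of 0.0372 and an adjusted p of 0.973 from limma. At 90 days it differed by -0.31 ± 0.35, and by -0.08 without them. Elovl5, which elongates polyunsaturated chains, differed by -0.10 ± 0.19 and -0.14 ± 0.19, and both intervals lay inside a 1.5-fold change; without the 2 arrays it differed by 0.09 and -0.03. Fads1 and Fads2, the desaturases of polyunsaturated fatty acid synthesis, differed at 28 days by -0.12 ± 0.47 and -0.45 ± 0.42 and at 90 days by -0.18 ± 0.47 and -0.51 ± 0.42. Leaving those arrays out, Fads1 differed by 0.38 and 0.18, and Fads2 by 0.04 and -0.26. Of the 7 genes of this step 1 was above vehicle at 28 days and 0 at 90 days, and without the 2 arrays 6 and 3 were.

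Uptake and activation bring preformed fatty acids into the pool. Cd36 encodes a fatty acid translocase. Cd36 read 8.37, 7.09, 8.70, 8.58 and 6.52 in the 28-day vehicle mice and 7.08, 8.40, 8.31, 8.39 and 9.39 in the 28-day PB mice. At 90 days Cd36 read 9.55, 8.34, 8.01, 7.10 and 6.98 in vehicle mice and 8.82, 7.81, 9.11, 8.70 and 8.62 in PB mice. PB mouse 5 of the 28-day group, the lowest mouse for most members, held the highest Cd36 value of the 28-day mice, and within the vehicle mice it spanned an 8.19-fold range. Cd36 differed by 0.46 ± 0.50 at 28 days and 0.62 ± 0.50 at 90 days, and by 0.19 and 0.49 without the 2 arrays. Adipocytes and macrophages also express Cd36. Adipoq, a defining adipocyte gene, did not pass the filter on low signals. The 4 adipocyte markers tested had a median difference of 0.13 at 28 days, with 3 of 4 higher, and of 0.19 at 90 days, with 4 of 4 higher, and without the 2 arrays of -0.03, with 1 of 4 higher, and 0.19, with 4 of 4 higher; the mean level of the 5 measured, above the low limit of the array, ran from 1.14 to 1.79 in 28-day PB mice and from 0.998 to 1.45 in 28-day vehicle mice, and at 90 days from 1.24 to 1.56 and from 0.98 to 1.23. The 7 macrophage markers had a median difference of 0.17 at 28 days and -0.33 at 90 days (0.11 and -0.42 without the 2 arrays), with mean levels between 4.05 and 4.47 in 28-day PB mice, 3.70 and 4.82 in 28-day vehicle mice, 3.21 and 4.01 in 90-day PB mice and 3.35 and 4.55 in 90-day vehicle mice. The part of either cell type in the Cd36 values was not tested, and in a bulk sample fewer cells of a type and less RNA per cell cannot be told apart.

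The acyl-CoA synthetases activate fatty acids for use. Acsl5 read 12.09, 12.34, 11.99, 12.17 and 11.93 in the 28-day vehicle mice and 11.72, 11.99, 12.38, 12.61 and 11.63 in the 28-day PB mice. At 90 days Acsl5 read 12.59, 12.25, 12.37, 12.20 and 12.09 in vehicle mice and 12.22, 12.14, 12.04, 12.29 and 12.49 in PB mice. Acsl5 had the narrowest range of the members over all 20 mice, 1.97-fold, whereas Dgat1 had the narrowest without the 2 arrays, 1.44-fold against 1.85-fold for Acsl5. Its differences of -0.04 ± 0.16 (SE; 95% interval -0.38 to 0.30) and -0.07 ± 0.16 (SE; 95% interval -0.41 to 0.28) for Acsl5 lay inside a 1.5-fold change. Acsl3, which serves lipid droplet growth, differed by -0.53 ± 0.33 and -0.38 ± 0.33, and by -0.27 and -0.41 without the 2 arrays. Acsl4, which prefers arachidonate, differed by -0.34 ± 0.20 and -0.33 ± 0.20, and by -0.42 at 90 days without the 2 arrays.

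Triglyceride assembly begins with Gpam, the mitochondrial glycerol-3-phosphate acyltransferase. Gpam read 11.13, 12.84, 11.52, 11.75 and 12.12 in the 28-day vehicle mice and 11.85, 11.50, 12.21, 11.97 and 9.11 in the 28-day PB mice. At 90 days Gpam read 13.10, 12.61, 12.50, 12.57 and 12.45 in vehicle mice and 12.04, 12.86, 10.57, 11.39 and 12.75 in PB mice. It spanned a 15.9-fold range over all mice, with mouse 5 of the 28-day PB group the lowest of the 20, and a 3.91-fold range without the 2 arrays. Gpam differed by -0.55 ± 0.50 (SE; 95% interval -1.58 to 0.49) at 28 days and -0.72 ± 0.50 (SE; 95% interval -1.76 to 0.31) at 90 days, and by 0.01 and -0.39 without the 2 arrays. Pnpla3 encodes a lipid droplet protein whose gene is a lipogenic target in mouse liver. Pnpla3 read 5.89, 6.59, 5.90, 5.63 and 5.35 in the 28-day vehicle mice and 5.69, 6.08, 6.14, 5.80 and 5.83 in the 28-day PB mice. At 90 days Pnpla3 read 6.51, 5.74, 5.30, 5.17 and 5.44 in vehicle mice and 5.80, 6.58, 6.50, 5.65 and 6.19 in PB mice. At 90 days 4 of 5 PB mice lay above 4 of the 5 vehicle mice, and vehicle mouse 1, at 6.51, lay among the highest. Pnpla3 differed by 0.51 ± 0.25 (SE; 95% interval -0.00 to 1.03) at 90 days, with an unadjusted p of 0.0515 and an adjusted p of 0.816 from limma, and by 0.42 without the 2 arrays; at 28 days it differed by 0.04 ± 0.25. Gpd1, which makes glycerol 3-phosphate, differed by -0.25 ± 0.33 and -0.29 ± 0.33, and by 0.08 and -0.08 without the 2 arrays. The acylglycerol acyltransferases Agpat2 and Agpat3 differed at 28 days by -0.10 ± 0.23 and -0.27 ± 0.37 and at 90 days by 0.01 ± 0.23 and -0.32 ± 0.37. Without the 2 arrays Agpat2 differed by 0.13 and 0.09, and Agpat3 by 0.19 and -0.12. The diacylglycerol acyltransferases Dgat1 and Dgat2, which close the pathway, differed at 28 days by -0.05 ± 0.17 and -0.04 ± 0.36 and at 90 days by -0.02 ± 0.17 and -0.11 ± 0.36. With those arrays left out Dgat1 differed by 0.13 and 0.03, and Dgat2 by 0.30 and 0.13. Pnpla5, a relative of Pnpla3, differed by 0.10 ± 0.21 and 0.07 ± 0.21, and by 0.00 and -0.07 without the 2 arrays. All 8 genes of this group were above vehicle at 28 days when the 2 arrays were left out, with a median of 0.10, where 2 of 8 had been with all mice.

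**Figure D2:**
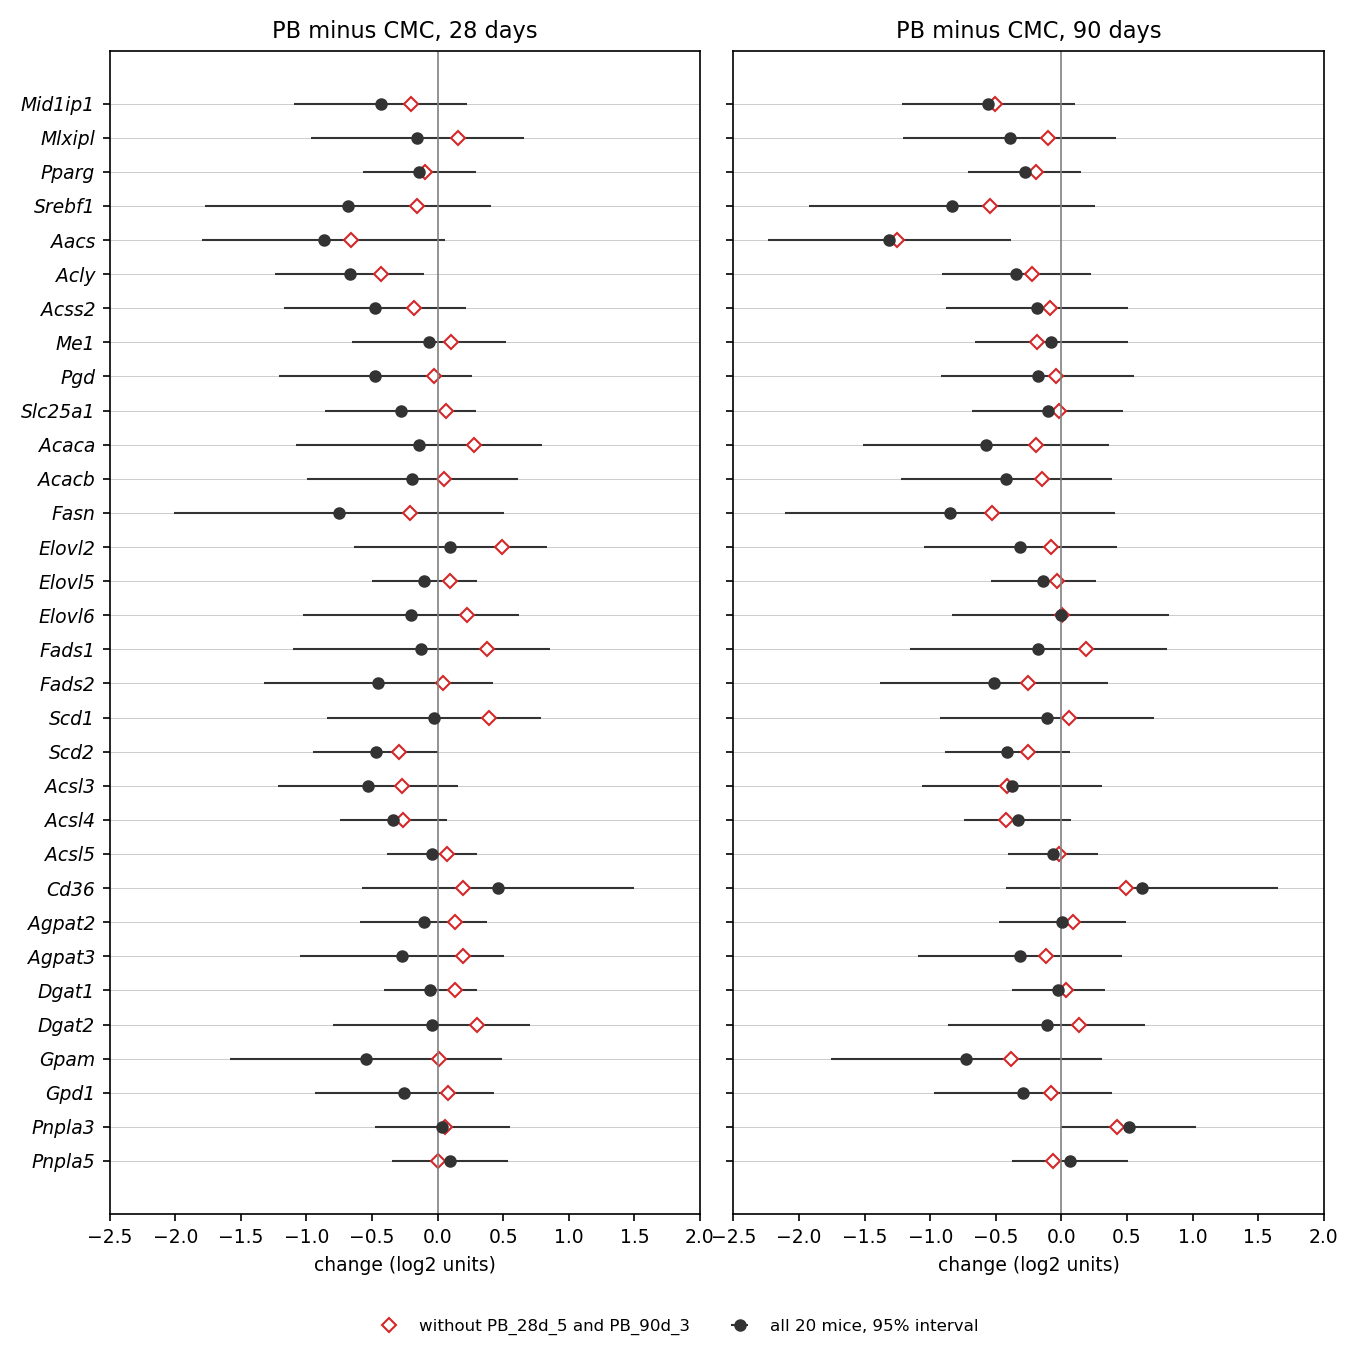
PB minus CMC difference in log2 units (horizontal axis) for each of the 32 members, at 28 days in one panel and at 90 days in the other; filled points with 95% intervals use all 20 mice and open diamonds leave out the 2 arrays that stand apart. The filled points lie below 0 for 28 of 32 members at each duration, and at 28 days most diamonds lie to the right of their filled point.

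Over the whole list the sign at 28 days followed 1 mouse. With all mice 4 of 32 members were above vehicle at 28 days and the median difference was -0.20, against 49.6% of all genes tested and a median of -0.00. Without the 2 arrays, of which only mouse 5 of the PB group enters this comparison, 21 of 32 members were above vehicle and the median was 0.06, against 55.1% and 0.02. At 90 days 4 of 32 members were above vehicle with a median of -0.29, against 56.2% and 0.03 for all genes. Without mouse 3 of the 90-day PB group 8 of 32 were above vehicle with a median of -0.10, against 51.5% and 0.01. When that first component was fitted as a covariate, the median was -0.08 at 28 days, 0.02 at 90 days and -0.02 over both durations. Over both durations 0 of 32 members and 0.212% of all genes were called, and 0 and 0.255% without the 2 arrays. In all, 5 members, Aacs, Scd2, Acly, Acsl4 and Mid1ip1, were lower over both durations with an unadjusted limma p under 0.05, as were 2.37% of all genes, and none was higher, against 4.24%; the lowest adjusted p was 0.431. Leaving out the 2 arrays, 2 members, Aacs and Acsl4, did so, and 15 of 32 were above vehicle with a median of -0.02, where 3 of 32 with a median of -0.27 had been before.

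The intervals state what these 5 mice a group could resolve. For 17 of 32 members at 28 days and 17 of 32 at 90 days the 95% interval lay inside a 2-fold change in either direction, and for 25 of 32 over both durations. For 6 members at 28 days and 5 at 90 days it lay inside a 1.5-fold change. Without the 2 arrays the interval lay inside a 2-fold change for 28 members at 28 days, 25 at 90 days and 29 over both, and inside a 1.5-fold change for 10 at each duration. With all mice Fasn, Srebf1 and Gpam had intervals that reached beyond a 2-fold decrease at both durations, and without the 2 arrays this was so at 90 days for the 3 genes and at 28 days for Fasn. No member separated PB from vehicle mice without overlap at either duration, where 0.355% of all genes did so upward and 0.187% downward at 28 days, and 0.635% and 0.43% at 90 days.

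The phenobarbital difference was also compared between durations. No member's difference at 90 days departed from that at 28 days past the threshold, and 0 of 16054 genes did. In all, 0 members had an unadjusted limma p under 0.05, as against 0.928% of all genes upward and 0.448% downward. The smallest p-values were those of Pnpla3, which differed by 0.48 ± 0.35 (SE; 95% interval -0.25 to 1.21), Acly, by 0.33 ± 0.39 (SE; 95% interval -0.48 to 1.13), and Elovl2, by -0.41 ± 0.50 (SE; 95% interval -1.45 to 0.63). Pnpla3 had an unadjusted p of 0.189 and an adjusted p of 1 from limma. Without the 2 arrays these differences were 0.37, 0.21 and -0.57, with 0 members at an unadjusted limma p under 0.05, and the members below 0 went from 20 to 27 of 32.

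**Figure D3:**
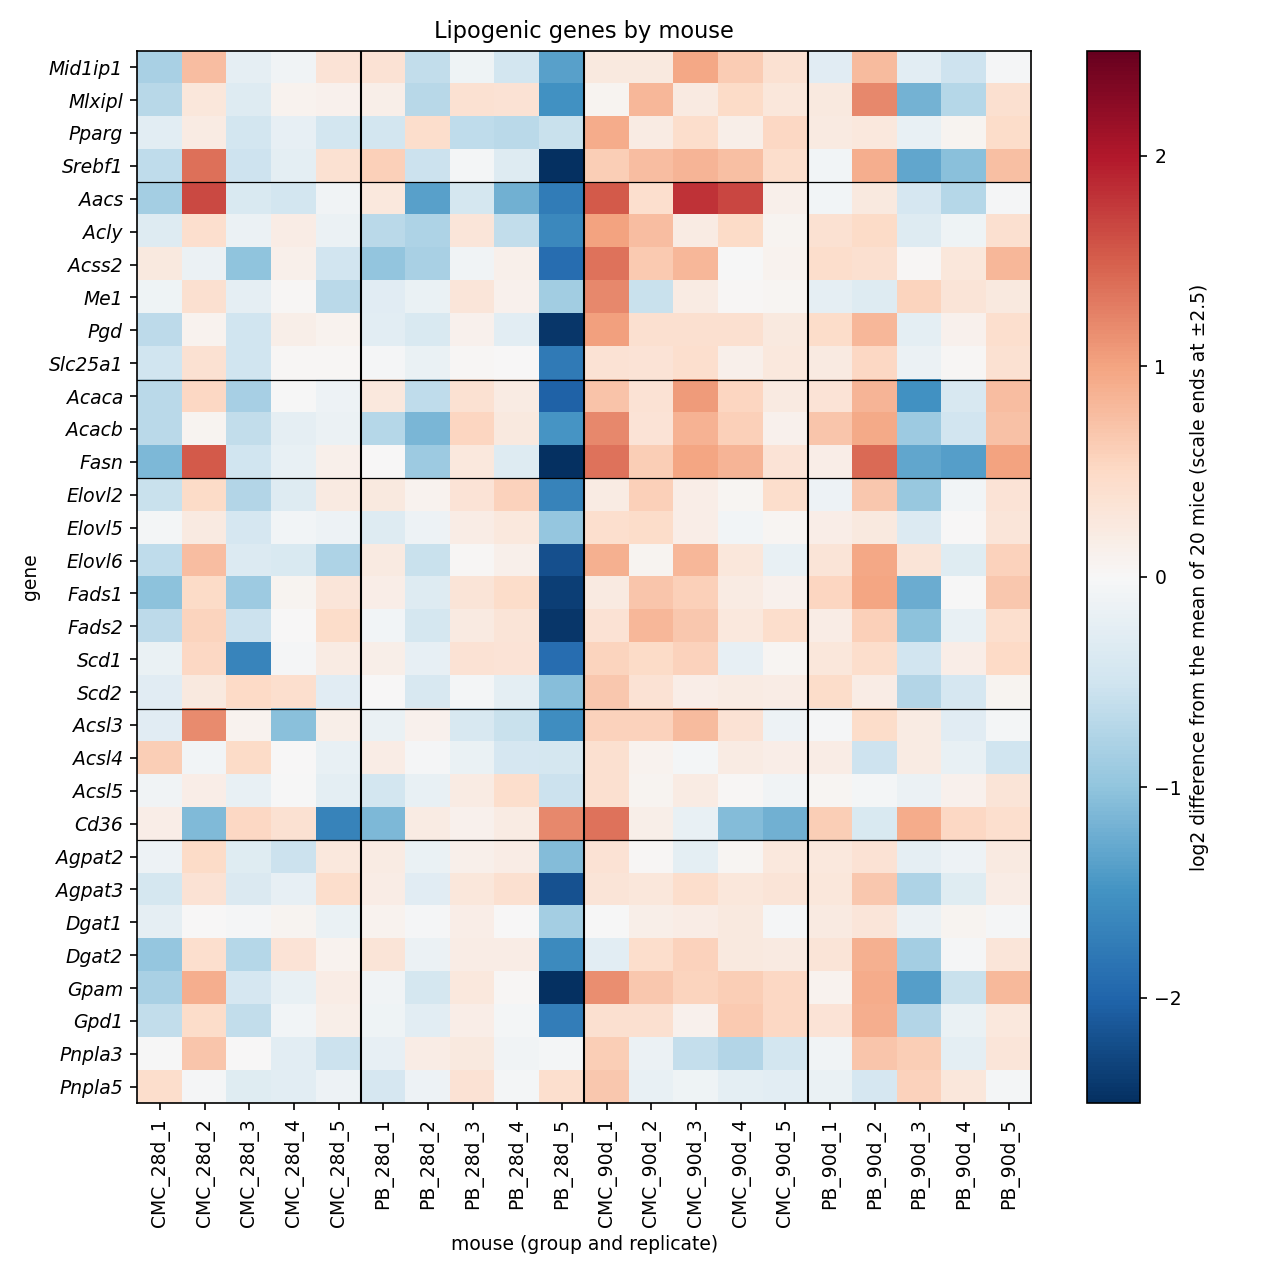
Deviation of each member from its mean over the 20 mice in log2 units (colour), with the 32 genes in rows by role and the 20 mice in columns by group. Mouse 5 of the 28-day PB group is the lowest of all mice for 27 of 32 members, and mouse 3 of the 90-day PB group is low in many of the same rows.

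Most of these genes moved together between mice of the same group. The first principal component of the whole table, with 55.6% of the variance, was not removed here, and its part was not tested. Outside the 2 arrays that stand apart, its lowest score was -39.8, in mouse 1 of the 28-day vehicle group. The median deviation of the members there was -0.46. Its highest score was 44.2, in mouse 2 of the 90-day PB group, where that median was 0.56. Group means were removed from each gene, and Pearson's r and Spearman's rho with Fasn were tested by shuffling mice within groups 100000 times, with Benjamini-Hochberg adjustment over the 31 other members. Over 20 mice 24 of 31 members were called by r, all with a positive sign, and 26 by rho. The median r of the 31 members was 0.81, and 25 of 31 had an r over 0.5, against a median of -0.18 and 25.4% for all other genes tested. The mice share their group means and the 2 arrays that stand apart, so the values were recomputed without those: the median r over 18 mice was 0.66, with 20 of 31 over 0.5, against -0.09 and 16.4%. In the 10 vehicle mice alone, which hold neither array, the median r was 0.66 and 24 of 31 were over 0.5, against -0.01 and 14.8%. These backgrounds are over all other genes tested, and genes of like signal level were not compared apart.

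Over all mice Srebf1 had the highest r with Fasn, 0.96 (permutation p = 3e-05, adjusted p = 0.000103), and Gpam the next. Gpam had the highest rho, and the highest r without the 2 arrays and in the vehicle mice alone. In all PB mice r was 0.97 for Srebf1 and 0.96 for Gpam. Srebf1 had rho = 0.91 (permutation p = 4e-05, adjusted p = 0.000155), and r = 0.92 without the 2 arrays. Gpam had r = 0.95 and rho = 0.95, both at the smallest p the permutations can give, 1e-05, and r = 0.97 without the 2 arrays. Acaca had r = 0.92 and rho = 0.94, also at 1e-05, and r = 0.90 without them. The 2 mice farthest from the median of Fasn were mouse 5 of the 28-day PB group and mouse 4 of the 90-day PB group, and without them r was 0.93 for Srebf1, 0.96 for Gpam and 0.90 for Acaca. In the 8 PB mice that do not stand apart, a set chosen after seeing the data, r was 0.97 for Gpam and for Slc25a1, 0.94 for Acaca and 0.93 for Srebf1.

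Genes of every step of chain synthesis followed. Gpd1 had r = 0.89, Fads1 0.87, Agpat3 0.87, Mlxipl 0.86, Slc25a1 0.86, Elovl6 0.86 and Fads2 0.86. Each of these had an adjusted permutation p of at most 0.000248, and without the 2 arrays their r lay between 0.74 and 0.85. Scd1 had r = 0.73 (adjusted permutation p = 0.00248) over 20 mice and 0.49 (adjusted permutation p = 0.144) over 18, so by r it was called over 20 mice and not over 18. By rho it was called over 20 mice (0.83, adjusted permutation p = 0.000155), and in the 8 PB mice that do not stand apart it had r = 0.70 (adjusted permutation p = 0.0426). Scd2, Elovl5, Dgat1, Acsl3 and Acss2 were also called by r over 20 mice and not over 18, and their r fell from between 0.53 and 0.74 to between 0.23 and 0.57. Pnpla3 went the other way, from 0.35 (adjusted permutation p = 0.116) to 0.56 (adjusted permutation p = 0.0412).

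In all, 7 of 31 members were not called by r over 20 mice. Among them Me1 had r = 0.27, Pparg 0.34 and Acsl5 0.51. A negative r was found for 3 members, Cd36 with -0.44 (permutation p = 0.047, adjusted p = 0.0564), Pnpla5 with -0.42 and Acsl4 with -0.28. Over 18 mice Cd36 had r = -0.27, Pnpla5 -0.17 and Acsl4 -0.47. By rho Cd36 was called, at -0.47 (permutation p = 0.0359, adjusted p = 0.0445), whereas Acsl4 had a rho of -0.28 (adjusted permutation p = 0.32).

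**Figure D4:**
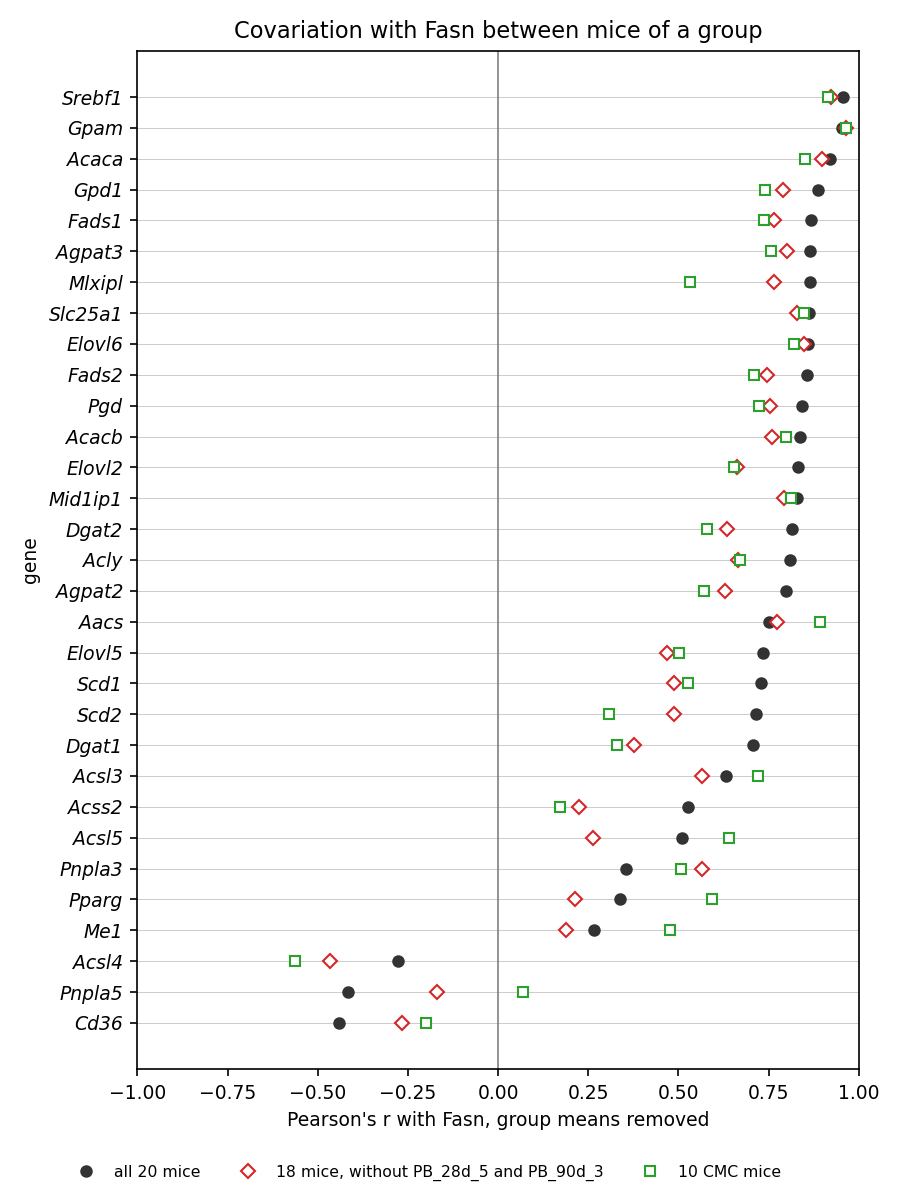
Pearson's r with Fasn (horizontal axis, no unit) for the 31 other members, with group means removed, over all 20 mice (filled points), over 18 mice without the 2 arrays that stand apart (diamonds) and over the 10 vehicle mice (squares). Srebf1, Gpam and Acaca lie near the right edge in all 3 sets, from 0.85 to 0.97, and Cd36 and Acsl4 lie below 0 in all 3.

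The windows around the transcription starts of the members were read for 3 motifs of known lipogenic factors. The windows are RefSeq promoters of assembly GRCm38.p6, each 300 bases long, from 250 before to 50 after a start, and 26 of the 32 members had one. The motifs were TCACNCCAC, a sterol regulatory element bound by SREBP, CACGTG, an E-box bound by USF and similar factors, and CCAAT, bound by NF-Y, which works beside SREBP. Both strands were searched, matches may overlap, and capitals mark them. Fasn (chr11:120824498-120824797, minus strand) holds 3 CCAAT boxes, of which the last pair overlaps. Slc25a1 (chr16:17928170-17928469, minus strand) holds 1 E-box and 2 CCAAT boxes. Mlxipl (chr5:135106641-135106940, plus strand) is shown as the 1 member window with the sterol regulatory element, and it is 1 of 2 windows of that gene. All 3 windows printed hold a match, whereas a window of Gpam and a window of Srebf1 held none. The part of these motifs in the covariation with Fasn was not tested.
Fasn: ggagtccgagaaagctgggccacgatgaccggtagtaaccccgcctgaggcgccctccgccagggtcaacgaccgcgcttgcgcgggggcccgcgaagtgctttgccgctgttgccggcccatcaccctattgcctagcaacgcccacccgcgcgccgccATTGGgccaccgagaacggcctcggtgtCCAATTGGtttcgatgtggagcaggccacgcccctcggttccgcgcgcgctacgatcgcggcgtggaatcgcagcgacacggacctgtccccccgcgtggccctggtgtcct
Slc25a1: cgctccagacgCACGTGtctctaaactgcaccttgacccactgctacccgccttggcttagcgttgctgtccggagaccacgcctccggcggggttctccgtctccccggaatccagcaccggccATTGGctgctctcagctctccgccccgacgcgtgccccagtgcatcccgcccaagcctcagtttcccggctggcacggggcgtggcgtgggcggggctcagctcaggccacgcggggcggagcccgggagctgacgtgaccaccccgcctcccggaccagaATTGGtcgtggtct
Mlxipl: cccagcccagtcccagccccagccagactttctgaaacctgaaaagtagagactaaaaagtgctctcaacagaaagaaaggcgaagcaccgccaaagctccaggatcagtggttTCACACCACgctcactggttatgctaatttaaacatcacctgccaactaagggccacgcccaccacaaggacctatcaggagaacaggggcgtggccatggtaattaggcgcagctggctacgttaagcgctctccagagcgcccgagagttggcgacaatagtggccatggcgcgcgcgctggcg
By gene, the CCAAT box was in 17 of 26 members (65.4%), against 41.1% of the 27025 genes with a window. The E-box was in 4 of 26 (15.4%), against 8.09%, and the sterol regulatory element in 1 of 26 (3.85%), against 1.44%. A gene with more windows has more places for a match. By window, the CCAAT box was in 19 of 35 (54.3%), against 37.4% of all 32851 windows. The E-box was in 11.4% against 7.15% of windows, and the sterol regulatory element in 2.86% against 1.24%. A match is a description of the letters in this window and not evidence of binding.

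Between durations 0 members were called in either treatment. In the vehicle mice 31 of 32 were higher at 90 than at 28 days, all but Pnpla3, and the median difference was 0.49, against 45.8% and -0.03 for all genes. In the PB mice all 32 were at or above their 28-day mean, with a median of 0.41, against 50.3% and 0.00; without the 2 arrays 29 of 32 were, with a median of 0.25, and without mouse 5 of the 28-day PB group alone the median was 0.09. Of all genes 0% were called in the vehicle mice and 0.00623% in the PB mice, and 0% and 0.0125% when the 2 arrays were left out. When the first component was fitted as a covariate, the medians were 0.08 in the vehicle mice and 0.19 in the PB mice. That component scored -39.8 to 22.6 in the 28-day and 11.7 to 34.0 in the 90-day vehicle mice. The part of a separate necropsy or array run was not tested, and duration and any such difference cannot be told apart.

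In the vehicle mice Pparg had the smallest p: it differed by 0.68 ± 0.21 (SE; 95% interval 0.25 to 1.11) (90 days minus 28 days), with an unadjusted p of 0.00344 and an adjusted p of 0.636 from limma. All 5 vehicle mice of 90 days were at or above 6.84, and of the 28-day ones 1 of 5, at 6.89, was. Aacs differed by 1.14 ± 0.44 (SE; 95% interval 0.22 to 2.06) and Acss2 by 0.84 ± 0.33 (SE; 95% interval 0.14 to 1.53). Acacb, at 0.94 ± 0.39, and Pgd, at 0.66 ± 0.35, had no overlap between the 2 vehicle groups, as did 1.36% of all genes in that direction and 0.972% in the other, where no member did. Upward, 4 members (Pparg, Aacs, Acss2 and Acacb) had an unadjusted limma p under 0.05, against 2.03% of all genes, and downward none, against 3.66%. The 2 arrays enter this comparison only through the shared estimate of spread: without them 15 of 32 members and 1534 of 16054 genes had such a p upward, and the lowest adjusted p of a member was 0.279.

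In the PB mice Acss2 had the smallest p: it differed by 1.13 ± 0.33 (SE; 95% interval 0.43 to 1.82) (90 days minus 28 days), with an unadjusted p of 0.00291 and an adjusted p of 0.971 from limma, and by 0.93 without the 2 arrays. Acly differed by 0.84 ± 0.27 (SE; 95% interval 0.27 to 1.41) and Pgd by 0.96 ± 0.35 (SE; 95% interval 0.22 to 1.69), the latter by 0.65 without the 2 arrays. Upward, 6 members (these 3, Pparg, Elovl6 and Slc25a1) had an unadjusted limma p under 0.05, against 1.96% of all genes, and downward none, against 2.27%; without the 2 arrays 5 members had such a p upward, and Elovl6 differed by 0.43 and Slc25a1 by 0.33. No member separated the PB mice of 90 days from those of 28 days without overlap, where 0.38% of all genes did so upward and 0.255% downward.

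**Figure D5:**
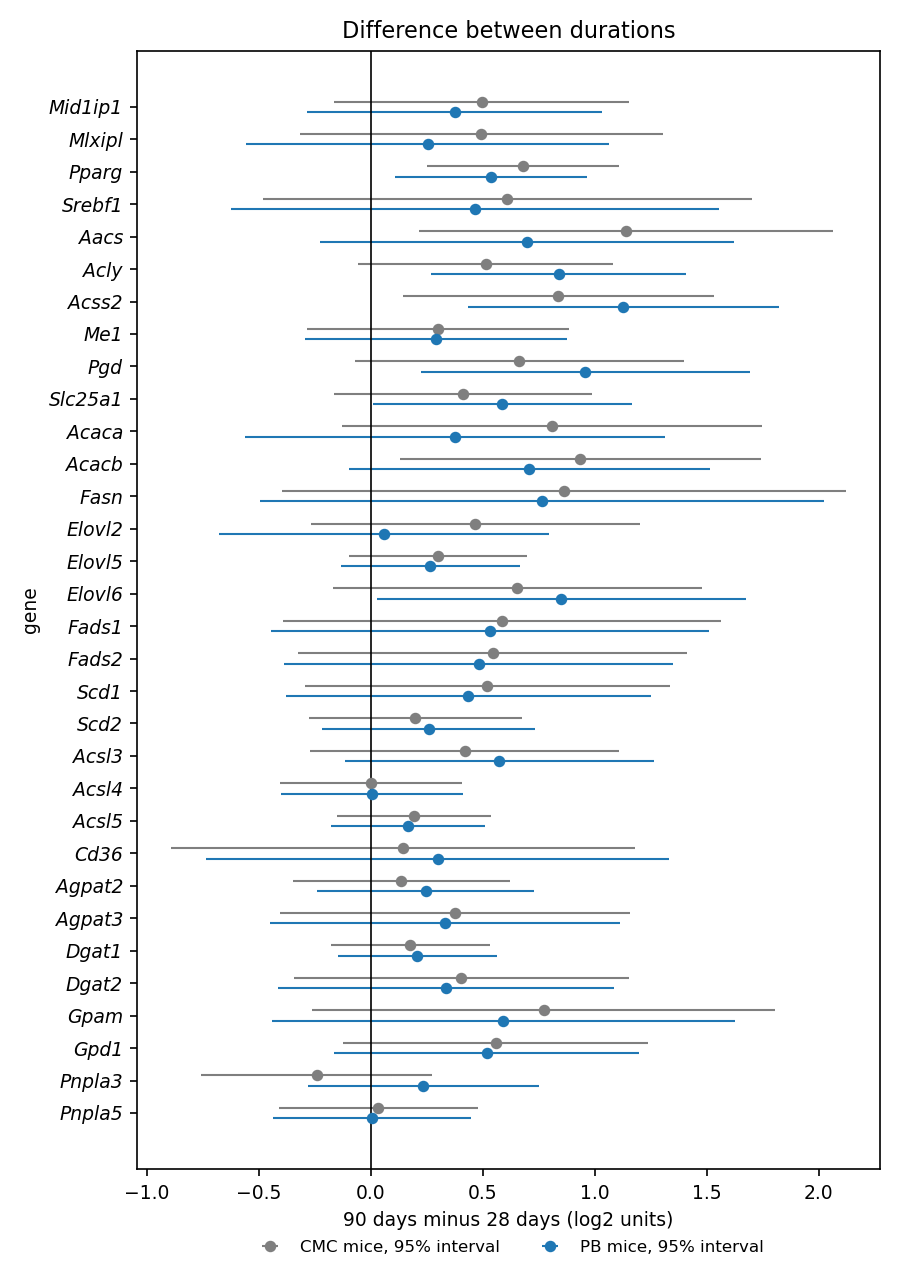
Difference between 90 and 28 days in log2 units (horizontal axis) for each of the 32 members, in vehicle mice (grey) and PB mice (blue), with 95% intervals, all 20 mice. Points lie to the right of 0 for 31 of 32 members in vehicle mice and at or to the right of 0 for all 32 in PB mice, and the points of Aacs in vehicle mice and of Acss2 in PB mice lie beyond 1.

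Other genes of the pathway, in 4 lists, were read in the same fit, and none of their genes was called for phenobarbital. The genes named below had the smallest p of their list, all with an adjusted p = 1 at 28 days and an adjusted p = 0.816 at 90 days from limma. Of 23 upstream signals and regulators tested, 6 were higher at 28 days (median -0.10) and 8 at 90 days (median -0.14), and without the 2 arrays 15 (median 0.07) and 7 (median -0.11). At 28 days Srebf2, the SREBP of cholesterol synthesis, differed by -0.35 ± 0.15 and Thrsp, the lipogenic protein Spot 14, by -0.95 ± 0.45. Ppargc1b, a coactivator of SREBP, differed by -1.05 ± 0.58 at 90 days, and Usf1, an E-box factor, by 0.27 ± 0.17, or by -0.48 and 0.17 without the 2 arrays. Of 11 genes that bring glucose carbon into the pathway, 2 were higher at 28 days (median -0.18) and 5 at 90 days (median -0.01), and without the 2 arrays 7 (median 0.09) and 7 (median 0.18). Khk, which encodes ketohexokinase, the first enzyme of fructose use, differed by 0.20 ± 0.16 at 28 days and 0.40 ± 0.16 at 90 days, and by 0.09 and 0.29 without the 2 arrays. Idh1, cytosolic isocitrate dehydrogenase, differed by -0.12 ± 0.09 at 28 days, and Gckr, the glucokinase regulator, by 0.34 ± 0.18 at 90 days.

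Of 27 further enzymes of fatty acid and triglyceride synthesis, 13 were higher at 28 days (median -0.04) and 11 at 90 days (median -0.06), and without the 2 arrays 17 (median 0.06) and 9 (median -0.06). Hacd3, a dehydratase of the elongation cycle, differed by -0.19 ± 0.10 at 28 days and -0.21 ± 0.10 at 90 days, with all 5 PB mice below all 5 vehicle mice at 90 days, as for 0.43% of all genes. Agpat1, a relative of Agpat2, differed by 0.33 ± 0.18 at 28 days, and Acot1, a cytosolic acyl-CoA thioesterase, by -0.85 ± 0.42 at 90 days. Of 14 genes of fatty acid uptake and PPAR gamma, 9 were higher at 28 days (median 0.04) and 9 at 90 days (median 0.10), and without the 2 arrays 10 (median 0.14) and 8 (median 0.05). Fabp5, a fatty acid binding protein, differed by -0.89 ± 0.36 at 28 days, with all 5 PB mice below all 5 vehicle mice, as for 0.187% of all genes. Slc27a1, a fatty acid transporter, differed by 0.26 ± 0.12 at 28 days. At 90 days Fabp4, a binding protein of adipocytes that is also one of the adipocyte markers, differed by 0.96 ± 0.39, and Plin2, a lipid droplet coat protein, by -0.39 ± 0.27.

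Markers of the cells a liver lobe can hold were compared in the same way. The 7 hepatocyte markers had a median PB minus CMC difference of -0.04 at 28 days and -0.07 at 90 days, and of -0.01 and -0.03 without the 2 arrays. Their mean level above the low limit lay between 8.64 and 10.24 in the 20 mice, whereas that of the 4 cholangiocyte markers lay between 0.62 and 1.32. The medians at 28 and 90 days were 0.09 and 0.11 for 7 stellate cell markers, 0.05 and 0.16 for 6 sinusoidal endothelial markers, 0.09 and 0.03 for 4 cholangiocyte markers and 0.13 and 0.18 for 5 neutrophil markers. S100a8, which encodes a calcium-binding protein of neutrophils, was far from the other 4: it differed by 5.06 ± 1.13 (SE; 95% interval 2.70 to 7.42) at 28 days (adjusted p = 0.248 with limma) and rose by 6.28 ± 1.13 (SE; 95% interval 3.92 to 8.64) at 90 days (adjusted p = 0.0163 with limma), and without the 2 arrays it rose by 5.95 (adjusted p = 0.0261 with limma) and 5.91 (adjusted p = 0.0148 with limma). It is named here after its values were seen: in the 90-day PB mice it read 13.21, 12.76, 12.97, 13.03 and 5.42, so mouse 5 lay in the vehicle range of 4.99 to 5.64. S100a9, which encodes its partner, differed by -0.15 ± 0.32 and -0.01 ± 0.32. The medians were 0.18 and 0.22 for 5 lymphocyte markers, 0.01 and 0.04 for 3 erythroid markers and -0.02 and 0.08 for 3 exocrine pancreas markers. Without the 2 arrays the medians of these 7 lists lay between -0.02 and 0.15 at 28 days and between 0.00 and 0.17 at 90 days. Between durations the macrophage markers went with the members in the other direction: 0 of 7 were higher at 90 days in either treatment, with a median of -0.28 in vehicle mice and -0.93 in PB mice, or -0.98 without the 2 arrays. Their part in the members' values was not tested.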

How the data were processed

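Liver RNA of 20 mice (4 groups of 5) was measured on Affymetrix 3' arrays, 1 array per mouse. The authors deposited log2 expression values made with RMA, per the submitters' processing notes; the version and genome build are not given in the sources used here. No earlier intensities were used, so background correction and normalization are the authors' own, and the number of mice limits the precision. The table held 45037 probe sets: 34945 carry 1 gene symbol in the platform annotation, 932 several and 9160 none, and only the first were used. No symbol changed on comparison with current gene IDs (34741 of 34945 found). Each gene was represented by its probe set of highest mean, and genes not above their array's 25th percentile on at least 5 arrays were left out (2139 of 18193).

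The members and gene lists were chosen with earlier results of these data known. Group means were estimated from all 20 arrays together with limma 3.58.1 in R 4.3.3 (eBayes with an intensity trend, 16 residual degrees of freedom), with p-values adjusted over 16054 genes, in 6 comparisons: PB against CMC at 28 days, at 90 days, over both and between durations, and 90 against 28 days in each treatment. Fits were tested on simulated data. Values were given mouse by mouse for the 3 members of smallest p in each comparison, the member of highest mean in each role, and Fasn, Scd1, Srebf1, Pnpla3, Pparg, Cd36 and Elovl6; of each pathway list the 2 genes of smallest p at each duration were named. Correlations with Fasn used values with group means removed and 100000 within-group permutations. The alternatives were other filters, probe set rules, centrings, array weights, the first principal component as a covariate, a replicate block, leaving out each mouse, and leaving out the 2 arrays that stand apart. The labels number the mice of each group, but nothing ties equal numbers to shared animals or batches. The limma p-values judge differences against the spread between these mice, as moderated over all genes tested. The permutation p-values judge the association with Fasn among them.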

Additional observations from a re-analysis of the deposited data

Results flagged for a closer look

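In 8 of 68 sets of 5 mice (17 members in 4 groups) 1 mouse lay far from the other 4 by Dixon's ratio of gap to range (critical value 0.71). Chance alone marks about 1 set in 20 where sets are independent. These sets share the same 20 mice and hold members that vary together, so that rate cannot judge the count. The share over all genes tested was not computed. Mouse 5 of the 28-day PB group, one of the 2 arrays that stand apart, was the low value in 4 of the 8 sets. It read 10.32 for Elovl2, with the other 4 mice between 12.08 and 12.56, and 6.60 for Pgd, with the others between 8.65 and 9.14. It read 12.26 for Scd1, with the others between 13.95 and 14.53, and 9.11 for Gpam, with the others between 11.50 and 12.21. In the same group mouse 2 was the high value for Pparg, at 7.14, with the others between 6.02 and 6.23. Mouse 1 of the 90-day vehicle group read 10.04 for Pgd, with the others between 9.27 and 9.43, and 13.10 for Gpam, with the others between 12.45 and 12.61. Mouse 2 of the 28-day vehicle group read 10.31 for Elovl6, with the others between 8.76 and 9.21.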

How the results depend on the processing

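No member was called in any of the 6 comparisons under any alternative run, 23 each for the 28-day and 90-day phenobarbital differences and for the duration differences, and 32 each for the mean over durations and the difference between them. The lowest adjusted p of a member under these was 0.553 at 28 days, 0.196 at 90 days and 0.18 over both durations, in each case with principal component 1 as a covariate. The 28-day PB minus CMC difference, negative in the report, was positive at 0.092 for Me1, 0.077 for Acsl5, 0.14 for Mlxipl, 0.24 for Scd1 and 0.20 for Elovl6 with array weights, and at 0.10 for Me1, 0.069 for Acsl5, 0.16 for Mlxipl, 0.39 for Scd1, 0.0092 for Gpam and 0.23 for Elovl6 without the 2 arrays. It was also positive at 28 days at 0.0088 for Acsl5 and 0.024 for Scd1 with centring on the 75th percentile, and at 0.026 for Mlxipl and 0.14 for Scd1 after adjustment for principal component 1. The 90-day PB minus CMC difference, negative in the report, was positive at 0.014 for Acsl5, 0.065 for Scd1 and 0.033 for Elovl6 with array weights, and at 0.056 for Scd1 and 0.0043 for Elovl6 without the 2 arrays. It was also positive at 90 days at 0.018 for Me1, 0.027 for Acsl5 and 0.087 for Elovl6 with centring on the 75th percentile, and at 0.094 for Elovl2, 0.029 for Acss2, 0.19 for Pgd, 0.018 for Acsl5, 0.049 for Mlxipl, 0.29 for Scd1 and 0.32 for Elovl6 after adjustment for principal component 1. It was also positive at 90 days at 0.021 for Elovl6 with cyclic loess, and at 0.025 for Pgd without _x_at and _s_at probe sets. Leaving out each mouse in turn, the 28-day difference ran from -0.094 to 0.22 for Pnpla3, -0.067 to 0.49 for Elovl2, -0.21 to 0.10 for Me1, -0.18 to 0.069 for Acsl5, -0.31 to 0.16 for Mlxipl, -0.38 to 0.39 for Scd1, -0.77 to 0.0092 for Gpam and -0.38 to 0.23 for Elovl6. Leaving out each mouse in turn, the 90-day difference ran from -0.33 to 0.0074 for Acss2, -0.26 to 0.18 for Me1, -0.13 to 0.0055 for Acsl5, -0.23 to 0.056 for Scd1 and -0.15 to 0.16 for Elovl6. None of these values was called, and the cause of these changes was not tested, apart from the mice left out. Correlation with Fasn was called for 5 of 31 members in the 10 CMC mice alone, for 10 in the 8 PB mice that do not stand apart (a set chosen after seeing the data), and for 19 to 26 under the other alternatives, against 24 in the report. The first 2 sets have fewer mice. There, r was -0.31 for Me1 and -0.090 for Pparg in the 8 PB mice and 0.070 for Pnpla5 in the 10 CMC mice. Whether equal replicate numbers mark paired mice cannot be decided here, since the labels do not say what the numbers stand for. Over 30 pairs of groups and numbers the correlation of deviations ran from -0.69 to 0.61 with a median of -0.08. Of these 9 were over 0.1. With the replicate block 0 members were called in each comparison. With 5 mice a group, differences within the intervals given cannot be resolved, and most of all for Fasn, Srebf1 and Gpam.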

Other observations

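The 75 genes of the 4 pathway lists were set against Fasn in the same way as the members, a comparison chosen after seeing the data, with p-values adjusted over these 75. Of them 41 were called by r over 20 mice and 14 over 18 mice, without the 2 arrays that stand apart, all 14 among the 41. A positive r was found for 31 of the 41 and for 13 of the 14. The share of all genes that this test would call was not computed. Of all other genes tested, 25.4% had an r over 0.5 over 20 mice and 16.4% over 18. Here too, genes of like signal level were not compared apart. The genes that went up with Fasn within groups include Scap, the escort protein of the SREBPs (r = 0.89, rho = 0.87, adjusted permutation p = 0.001 for r), Tkt, transketolase of the pentose phosphate pathway (r = 0.89, rho = 0.86, adjusted permutation p = 0.00075), and Tecr, the last enzyme of the elongation cycle (r = 0.87, rho = 0.83, adjusted permutation p = 0.00136). Over 18 mice their r was 0.85, 0.84 and 0.74, with adjusted permutation p-values of 0.0142, 0.0142 and 0.0164. The genes that went down include Hacd2, a dehydratase of the elongation cycle (r = -0.78, adjusted permutation p = 0.001), which kept r = -0.70 (adjusted permutation p = 0.0164) without the 2 arrays. Fabp2, an intestinal-type fatty acid binding protein, had r = -0.79 over 20 mice and -0.61 without the 2 arrays (adjusted permutation p = 0.134). Nr1h3, which encodes LXR alpha, had r = -0.74 over 20 mice (adjusted permutation p = 0.00967) and -0.54 over 18 (adjusted permutation p = 0.159). Thrsp, often counted among lipogenic genes, had r = -0.02 over 20 mice and 0.28 over 18. By list, the median r over 20 mice was 0.63 for 23 upstream signals and regulators, 0.60 for 11 genes of glucose entry, 0.05 for 27 further enzymes and 0.13 for 14 genes of fatty acid uptake and PPAR gamma, against 0.81 for the members and -0.18 for all other genes. Over 18 mice these were 0.43, 0.31, 0.06 and -0.05, against 0.66 and -0.09.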
